A study of Mus musculus with 6 samples.

Results

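The 10 core genes of the circadian clock were examined for open chromatin in cultured bone marrow cells of young and middle-aged mice. They were Clock, Arntl (the gene of BMAL1), Npas2, Per1, Per2, Per3, Cry1, Cry2, Nr1d1 and Nr1d2, taken by name out of 21853 protein-coding genes of the GENCODE annotation of mm10. For each gene, every called peak was collected that touched 1000 bp on either side of a protein-coding transcription start site (TSS), the gene body, or the 10000 bp upstream of the gene start. This gave 23 to 41 peaks per library out of lists of 27628 to 48344 peaks, and 49 of the 63840 regions formed by merging overlapping peaks of all libraries.

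Open chromatin had been mapped by ATAC-seq, whose transposase cuts and tags DNA that nucleosomes leave bare. The study used SSPCs, skeletal stem and progenitor cells obtained by plating tibial and femoral marrow of C57BL/6 mice and studied without treatment at the first passage in culture, and the labels name 3 young and 3 middle-aged libraries. The labels do not tie a library to a mouse, so p-values measure the spread between these libraries. The hour at which marrow was taken, and whether cultures were synchronized, are not given in the sources used here. Peak height in a bulk library is an average, so fewer cells with an open site and less opening per cell cannot be told apart.

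The clock is a feedback loop of transcription. CLOCK, or its relative NPAS2, pairs with BMAL1 and switches on the Per, Cry and Nr1d genes through short DNA elements called E-boxes; PER and CRY proteins then block that pair, and the REV-ERB receptors encoded by Nr1d1 and Nr1d2 repress Arntl through elements called ROREs. In bone and marrow the loop is known to give daily rhythm to bone turnover and to the release of blood stem cells.

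The depth is known only from the peaks. The genome-wide background solved from the deposited values was 1.65 to 3.75 reads per base in the young libraries and 2.40 to 2.79 in the middle-aged libraries, and the young lists were shorter, with 27628 to 43941 peaks against 46364 to 48344. Young 3 was the shallowest and held the fewest peaks. Of 10 stromal marker genes, 4 to 8 had a TSS peak in the young and 7 or 8 in the middle-aged libraries. Lepr and Prrx1 had none in any library, while Kitl, Runx2, Twist1 and Foxc1 had one in every library. Of 10 hematopoietic marker genes, 7 or 8 had a TSS peak in each library, among them Ptprc, which encodes CD45, and Spi1. Cd3e and Cd79a had none in any library, and Csf1r had one only in young 2 and young 3. The median rank of these hematopoietic TSS peaks in their list was 36.3 to 56.5 in the young and 67.5 to 69.3 in the middle-aged libraries, that of the stromal peaks 32.4 to 46.2 and 51.2 to 52.5. These medians cover only the markers called in each library, such as 4 stromal genes in young 3, so they are not strictly comparable. The median rank over all protein-coding genes with a TSS peak was 76.5 to 83.2 in the young and 84.6 to 85.7 in the middle-aged libraries. Endothelial markers had 2 TSS peaks of 6 in each young library and 2 to 4 in the middle-aged libraries, with median ranks of 47.5 to 59.4 and 39.2 to 46.6, and Tie1 and Emcn had none. These TSS peaks do not show which cells were present, and the part of any other cells in the clock gene values was not tested.

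The sequences below overlapped peaks called in all 6 libraries, but some, such as the Per1 intron window, run past the peak edges. They are shown because they carry known clock elements (E-box, E′-box, D-box, CRE) or because they hold many copies of another element (Arntl). The Nr1d2 intron is shown because it had an unadjusted limma p under 0.05 in the height comparison below, where no region passed after adjustment. RefSeq promoter windows of GRCm38.p6, from 250 bases before to 50 after a start site, were found for 9 of the 10 genes, in 13 windows (not for Per2). Both strands were searched for the E-box, spelled CACGTG; for its variant the E′-box, which reads CACGTT on one strand; for the D-box, spelled TTANGTAA; for the cAMP response element (CRE), spelled TGACGTCA; for the AP-1 site, spelled TGANTCA; for the CCAAT box, with its letters as named; and for the RORE. None of these matches overlapped another in the sequences printed. Capitals mark the named element, and each sequence runs 5′ to 3′ on the strand of its gene.

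The 250 bases before the first Arntl start site (chr7:113207215-113207464, plus strand) hold 7 CCAAT boxes, the element bound by the factor NF-Y, on the other strand as ATTGG:
Arntl promoter: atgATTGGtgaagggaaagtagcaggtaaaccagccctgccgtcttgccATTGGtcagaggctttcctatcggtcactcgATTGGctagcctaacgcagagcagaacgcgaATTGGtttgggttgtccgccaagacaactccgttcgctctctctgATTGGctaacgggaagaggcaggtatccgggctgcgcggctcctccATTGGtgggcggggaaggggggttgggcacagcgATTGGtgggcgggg
The same stretch of Per3 (chr4:151044666-151044915, minus strand) holds 2 D-boxes, the element read by the proteins of Dbp, Tef, Hlf and Nfil3:
Per3 promoter: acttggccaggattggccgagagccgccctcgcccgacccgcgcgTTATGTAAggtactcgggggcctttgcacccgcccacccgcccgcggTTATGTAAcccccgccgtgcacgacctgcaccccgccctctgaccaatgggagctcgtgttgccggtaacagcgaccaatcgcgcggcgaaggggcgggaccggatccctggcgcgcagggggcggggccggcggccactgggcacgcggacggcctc
Cry1 (chr10:85185055-85185304, minus strand) holds an E-box and an E′-box (AACGTG as printed), and Cry2 (chr2:92434070-92434319, minus strand) and Nr1d1 (chr11:98775378-98775627, minus strand) an E′-box each:
Cry1 promoter: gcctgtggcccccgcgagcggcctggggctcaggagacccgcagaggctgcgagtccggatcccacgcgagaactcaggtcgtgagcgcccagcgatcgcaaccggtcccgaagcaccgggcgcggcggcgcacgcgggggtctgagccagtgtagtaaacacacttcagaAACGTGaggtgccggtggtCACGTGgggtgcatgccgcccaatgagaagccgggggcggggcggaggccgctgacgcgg
Cry2 promoter: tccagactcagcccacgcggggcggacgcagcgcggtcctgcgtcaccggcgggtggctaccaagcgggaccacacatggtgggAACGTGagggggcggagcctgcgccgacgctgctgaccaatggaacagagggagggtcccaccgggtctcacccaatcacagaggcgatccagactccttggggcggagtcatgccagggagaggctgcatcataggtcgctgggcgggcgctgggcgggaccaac
Nr1d1 promoter: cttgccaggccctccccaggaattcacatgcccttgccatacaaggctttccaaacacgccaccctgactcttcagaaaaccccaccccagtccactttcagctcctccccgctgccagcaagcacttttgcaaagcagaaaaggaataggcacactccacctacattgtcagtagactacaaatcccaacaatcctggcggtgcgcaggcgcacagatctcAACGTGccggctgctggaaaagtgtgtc

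The next sequences are windows of 300 bases around the mean summit of regions called in all 6 libraries. The intron and upstream regions overlapped no exon of a protein-coding transcript of their own gene, while the first Per1 promoter region covered the gene start. The first Per1 promoter region (chr11:69094845-69095144, plus strand) holds 2 E-boxes, and the Per1 intron region (chr11:69097012-69097311, plus strand) a CRE, through which cAMP signals are known to induce Per1:
Per1 first promoter region: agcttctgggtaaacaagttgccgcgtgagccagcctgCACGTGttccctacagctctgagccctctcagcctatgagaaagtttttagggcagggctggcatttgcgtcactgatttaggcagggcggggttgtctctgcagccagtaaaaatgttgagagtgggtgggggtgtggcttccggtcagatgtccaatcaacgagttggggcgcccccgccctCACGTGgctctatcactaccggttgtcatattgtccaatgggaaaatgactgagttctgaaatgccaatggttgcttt
Per1 intron region: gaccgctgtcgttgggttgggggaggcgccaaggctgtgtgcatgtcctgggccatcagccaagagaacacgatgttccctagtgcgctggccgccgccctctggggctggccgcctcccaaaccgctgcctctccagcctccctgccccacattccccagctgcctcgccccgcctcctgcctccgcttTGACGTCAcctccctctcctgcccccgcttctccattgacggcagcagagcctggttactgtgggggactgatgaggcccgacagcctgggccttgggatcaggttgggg
The Nr1d1 intron region (chr11:98773805-98774104, minus strand) holds 2 E-boxes and a D-box, and the region upstream of Nr1d1 (chr11:98783367-98783666, minus strand) an E-box:
Nr1d1 intron region: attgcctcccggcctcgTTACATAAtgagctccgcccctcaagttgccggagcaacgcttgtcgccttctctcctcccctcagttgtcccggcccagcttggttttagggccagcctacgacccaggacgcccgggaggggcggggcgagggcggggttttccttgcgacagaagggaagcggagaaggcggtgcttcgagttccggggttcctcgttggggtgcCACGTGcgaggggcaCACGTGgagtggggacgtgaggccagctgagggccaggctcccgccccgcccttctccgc
Nr1d1 upstream region: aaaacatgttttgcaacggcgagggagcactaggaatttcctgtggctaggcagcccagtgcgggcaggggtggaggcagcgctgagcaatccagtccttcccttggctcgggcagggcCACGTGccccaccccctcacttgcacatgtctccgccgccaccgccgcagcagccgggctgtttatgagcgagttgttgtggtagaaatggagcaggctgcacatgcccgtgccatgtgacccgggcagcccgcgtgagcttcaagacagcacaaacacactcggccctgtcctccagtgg
The Nr1d2 intron region (chr14:18233996-18234295, minus strand) holds an AP-1 site, the element of FOS and JUN proteins:
Nr1d2 intron region: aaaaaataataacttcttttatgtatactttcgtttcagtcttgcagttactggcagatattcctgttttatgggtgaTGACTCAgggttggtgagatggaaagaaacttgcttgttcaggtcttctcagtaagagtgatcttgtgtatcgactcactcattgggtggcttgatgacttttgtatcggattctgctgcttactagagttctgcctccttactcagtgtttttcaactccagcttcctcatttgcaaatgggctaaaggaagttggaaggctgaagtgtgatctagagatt

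Read against all promoters, the elements were as follows. The E-box was found in 2 of the 13 clock gene windows (Cry1 and the second Per1 promoter) and in 7.15% of the 32851 windows of the table, and the E′-box in 3 (Cry1, Cry2 and Nr1d1) and 4.68%. The D-box was in 1 window and 2.32%, and 27 windows of the table, 0.0822%, held 2 or more as Per3 did. The RORE was in 1 window, that of the second Arntl start site, and 0.384%; the matched letters AAAGTAGGTCA began 26 bases after that start. CCAAT boxes were in 9 of 13 windows and 37.4% of all, and 4 windows of the whole table, 0.0122%, held 7 or more, of which the 2 overlapping Arntl windows were a pair; the multiple CCAAT boxes and D-boxes were singled out after their counts were seen. Every printed promoter element lay under a called peak in all 6 libraries. CRE and AP-1 letters were in no clock gene promoter window, against 1.79% and 7.81% of the table. The windows were rich in CpG, with a median of 22 CpG and 65.7% G and C against 7 CpG and 52.7% over the table, and all 13 exceeded the table's median number of CpG. None of the 10 genes had the start site of another protein-coding gene within 1000 bp of its own, which 12.9% of all protein-coding genes had.

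In the 300-base windows of the 18 shared regions searched, the E-box was in 4 and in 8.28% of the 22403 regions called in all libraries, the D-box in 2 and 2.02%, the CRE in 1 and 2.05%, and the AP-1 site in 1 and 16.0%. The E′-box was in 2 and 4.67%, the CCAAT box in 9 and 34.5%, and the RORE in none, against 0.388%. These counts describe letters in small windows and were given no test.

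All 10 clock genes had a TSS peak in at least 4 libraries, and 9 of them, every one but Npas2, in all 6. The number of genes with a TSS peak was 9, 10 and 10 in the 3 young libraries against 10, 10 and 9 in the middle-aged ones, a difference of means of 0 (p = 1 by a two-sided exact permutation test, for which 3 against 3 libraries allow no p under 0.1). No clock gene had a TSS peak in 2 or more libraries more, or fewer, of one age, which 4.51% and 0.178% of the 13447 genes with a TSS peak in any library had in the middle-aged and young direction. Of all protein-coding genes, 49.5% to 56.8% had one in the young and 57.4% to 58.0% in the middle-aged libraries.

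Each peak was placed in its own list by the −log10 q-value of the peak caller, as a percentile rank on which 100 is the top of the list. The median rank over the clock genes with a TSS peak was 89.5, 93.0 and 85.5 in the young libraries against 92.6, 91.2 and 96.3 in the middle-aged ones. These medians cover 10 genes, but 9 in young 1 and middle-aged 3, where the low-ranking Npas2 was not called, so they are not strictly comparable between libraries. Over the 10569 genes with a TSS peak in every library the medians were 77.4 to 86.5 and 87.9 to 88.8, below the median of the clock genes in each library. Single genes lay on either side. Per1 and Nr1d1 were below the median of those 10569 genes in all 6 libraries, and Npas2 was below it wherever it was called.

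**Figure D1:**
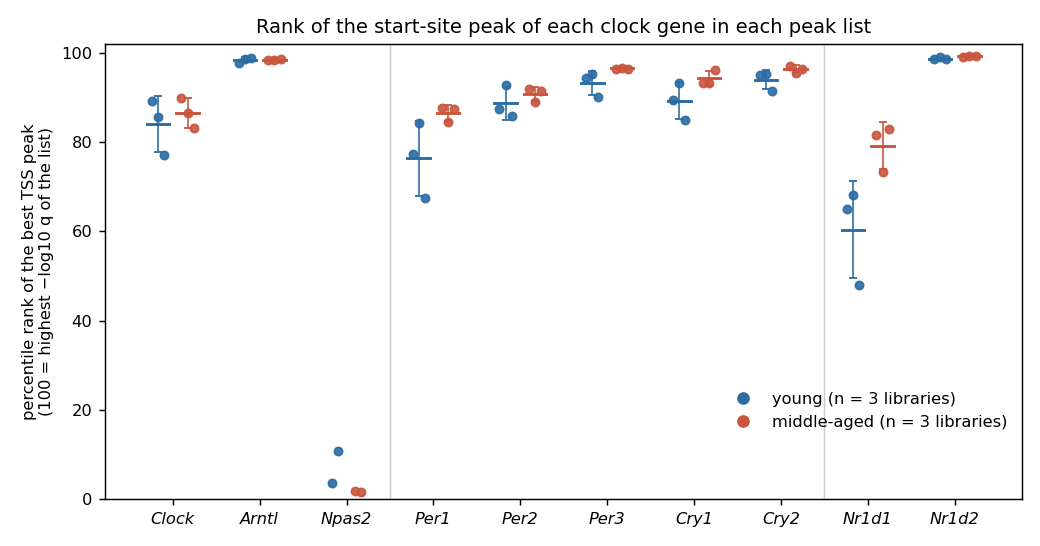
Percentile rank of the best TSS peak of each clock gene in its own peak list (vertical axis, 100 = highest −log10 q), with 1 point per library, the group mean as a horizontal bar and the SD as an error bar; genes are ordered as activators, Per and Cry repressors, and nuclear receptors. Arntl and Nr1d2 lie above 97 in every library, Npas2 lies below 11 where it was called and has no mean, and the 2 age groups of Nr1d1 lie farthest apart.

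In order of mean rank over the libraries the genes ran Nr1d2 (99.0), Arntl (98.5), Cry2 (95.2), Per3 (94.9), Cry1 (91.8), Per2 (89.7), Clock (85.3), Per1 (81.4), Nr1d1 (69.8) and, over the 4 libraries that called it, Npas2 (4.39). Neighbors in this order had ranges that overlapped, except Arntl (97.8 to 98.9) over Cry2 (91.5 to 97.2) and Nr1d1 (48.0 to 82.9) over Npas2 (1.53 to 10.6). Nr1d2 ranked above Arntl in 5 of 6 libraries, and Per1 above Nr1d1 in 6 of 6.

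Of the activators, Arntl, the partner that CLOCK and NPAS2 share, had one of the tallest peaks of each list. Its ranks were 97.8, 98.7 and 98.9 in the young and 98.3, 98.4 and 98.6 in the middle-aged libraries, each named in the order 1, 2 and 3 as all values below are. The groups overlapped, and the means of 98.5 ± 0.581 and 98.5 ± 0.138 (SD, n = 3 each) differed by less than either spread (exact permutation p = 1). The peak stood at chr7:113206873-113207909 over the first 3 Arntl start sites, with its summit before the first, and held 109 to 206 reads at the summit.

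Clock, which encodes the DNA-binding activator that names the loop, had ranks of 89.2, 85.7 and 77.0 (young) and 89.9, 86.6 and 83.1 (middle-aged). The groups overlapped, with means of 84.0 ± 6.27 and 86.5 ± 3.41 (exact permutation p = 0.6). Its region, chr5:76303660-76305197, was made of 2 neighboring peaks that the caller joined into one of 1477 bp in middle-aged 3, and the higher of them lay either at the start site or within the gene, up to 593 bp from the nearest start. The start of Gm7467, an antisense gene, lies in the same region, and ATAC-seq reads cannot be assigned to one or the other.

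Npas2, which can stand in for Clock in other tissues, had the weakest start site of the set. No TSS peak was called in young 1 and middle-aged 3. The ranks elsewhere were 3.55 (young 2), 10.6 (young 3), 1.83 (middle-aged 1) and 1.53 (middle-aged 2), at the foot of each list. The call in middle-aged 2 was a separate region (chr1:39192764-39192963) with its summit at -876 bp from the nearest start site. The region over the start sites (chr1:39193685-39194550) was called in 2 young libraries and 1 middle-aged library. The summits held 15, 12, 13 and 13 reads, and with so few the exact Poisson 95% intervals were wide (for example 6.20 to 21.0 for the 12 reads of young 3), so that a missing call does not show closed chromatin. The peak was called in young 3, the shallowest library by background, and not in young 1, the deepest. Intervals of this kind cover counting error only.

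The repressors stood between. Per1, the Per gene best known for quick induction, had ranks of 77.4, 84.2 and 67.4 in the young libraries against 87.6, 84.5 and 87.4 in the middle-aged ones. All 3 middle-aged values were above the young ones, but middle-aged 2 exceeded young 2 by little, and the means were 76.3 ± 8.44 and 86.5 ± 1.76 (exact permutation p = 0.1). Per1 was the only clock gene with 3 TSS regions called in all libraries, centered -206, 3635 and 4812 bp from the gene start.

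Per2, the Per gene whose loss is best known to weaken the rhythm, had ranks of 87.3, 92.7 and 85.9 against 91.9, 89.1 and 91.4. The groups overlapped (means 88.7 ± 3.61 and 90.8 ± 1.53, exact permutation p = 0.4). Per3, a Per gene with weaker known effects on the loop, had young ranks of 94.4, 95.2 and 90.1 and middle-aged ranks of 96.4, 96.7 and 96.4. Here the groups did not overlap (93.2 ± 2.72 and 96.5 ± 0.191, exact permutation p = 0.1).

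Cry1 and Cry2 encode the stronger direct blockers of CLOCK and BMAL1. Cry1 ranked 89.5, 93.3 and 85.0 in the young libraries against 93.4, 93.4 and 96.3 in the middle-aged ones. Cry2 ranked 95.1, 95.3 and 91.5 against 97.2, 95.5 and 96.4. In neither gene did the groups overlap, with differences of means of 5.05 and 2.40 percentile points (exact permutation p = 0.1 each), but young 2 lay within 0.3 points of the lowest middle-aged library in both.

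The nuclear receptors gave the highest and nearly the lowest start site of the set. Nr1d2 ranked 98.6, 99.0 and 98.6 in the young libraries against 99.2, 99.4 and 99.4 in the middle-aged ones, without overlap (exact permutation p = 0.1), and its summits held 126 to 291 reads. Nr1d1 ranked 65.1, 68.1 and 48.0 against 81.5, 73.2 and 82.9. Its difference of 18.8 percentile points (60.4 ± 10.8 and 79.2 ± 5.22, exact permutation p = 0.1) was the largest of the 9 genes, and the groups did not overlap.

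In all, 6 of the 9 genes with a TSS peak in every library (Per1, Per3, Cry1, Cry2, Nr1d1 and Nr1d2) ranked higher in every middle-aged than in every young library, and 0 ranked lower. The background was high, since 30.6% of the 10569 genes did the same and 0.274% the reverse, and without young 2 it rose to 58.7%, beside 7 of 9 clock genes. At a minimum −log10 q of 5 the groups of Per1 and Cry1 overlapped, which left 4 genes beside 28.2%. The median difference was 2.58 percentile points over the 9 clock genes and 4.97 over all those genes. Ranks end at 100, so genes such as Nr1d2 and Arntl had little room to rise.

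Ranks depend on the length of the list, and the middle-aged lists were longer. With every list cut to its best 27628 peaks, Per3 and Nr1d1 were the 2 clock genes that still did not overlap, against 9.51% of all genes. When rank was taken only among the 22403 regions present in all libraries, an alternative chosen after seeing the data, Per3 alone did not overlap, at 91.0, 90.6 and 87.9 (young) and 92.5, 93.2 and 92.3 (middle-aged), and no gene was lower without overlap, against 6.56% higher and 6.53% lower of those regions. Nr1d1 on that scale stood at 45.2, 39.2 and 38.2 (young) and 62.0, 45.2 and 63.3 (middle-aged), so that middle-aged 2 met young 1. Clock and Per2 turned from higher to lower in middle-aged libraries on both scales, by -3.10 and -1.66 points in equally long lists and by -3.85 and -2.06 points among shared regions.

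**Figure D2:**
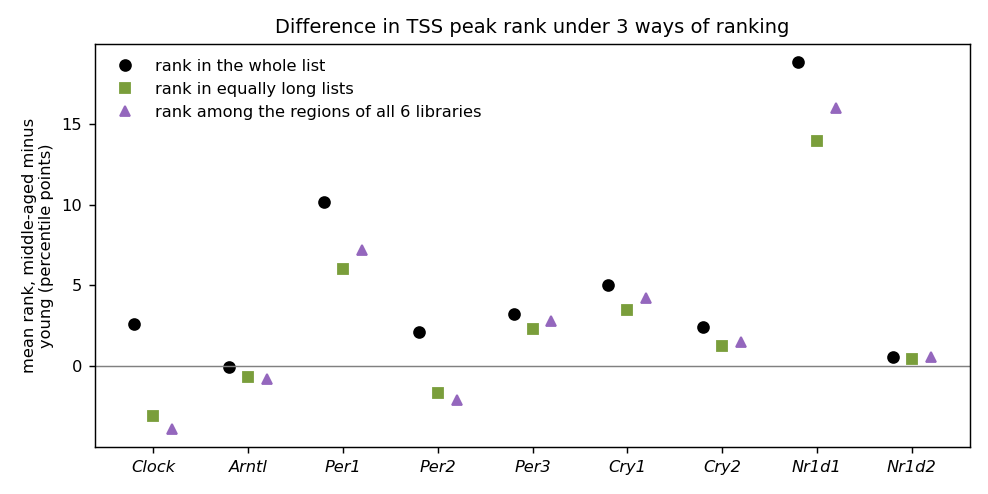
Difference of the mean TSS peak rank, middle-aged minus young, in percentile points (vertical axis) for the 9 clock genes called in all libraries, under ranking in the whole list (circles), in equally long lists (squares) and among the regions of all libraries (triangles). Nr1d1 is the highest on each scale, at 18.8 in whole lists, and Clock and Per2 cross 0.

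The height of the same peaks was followed on 2 further scales. Fold enrichment, as deposited, sets the summit against the local background. On that scale the same 6 genes did not overlap, all higher in middle-aged libraries, against a background of 38.4% of genes higher (72.2% without young 2, beside 8 clock genes) and 0.114% lower, and the median difference was 0.25 on the log2 scale for the 9 clock genes and 0.24 over all. The Nr1d1 folds were 5.08, 5.25 and 5.0 in the young libraries against 6.88, 5.83 and 7.06 in the middle-aged ones, a difference of 0.36 on the log2 scale, and the Per3 folds 12.8, 14.3 and 11.8 against 15.5, 16.0 and 15.1, a difference of 0.26. Both genes thus had all middle-aged folds above the young ones (exact permutation p = 0.1 each).

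The second scale was the summit read number over the genome-wide background of the library. The summit of Nr1d2 held 56.0, 87.6 and 76.5 times that background in the young and 104, 118 and 104 times in the middle-aged libraries, and that of Arntl 43.5, 68.5 and 66.2 against 74.4, 79.9 and 73.8 times. The 7 genes without overlap were the earlier 6 and Arntl, but 60.7% of all genes did the same and 0.0284% the reverse, with a median difference of 0.59 on the log2 scale over the clock genes and 0.48 over all.

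**Figure D3:**
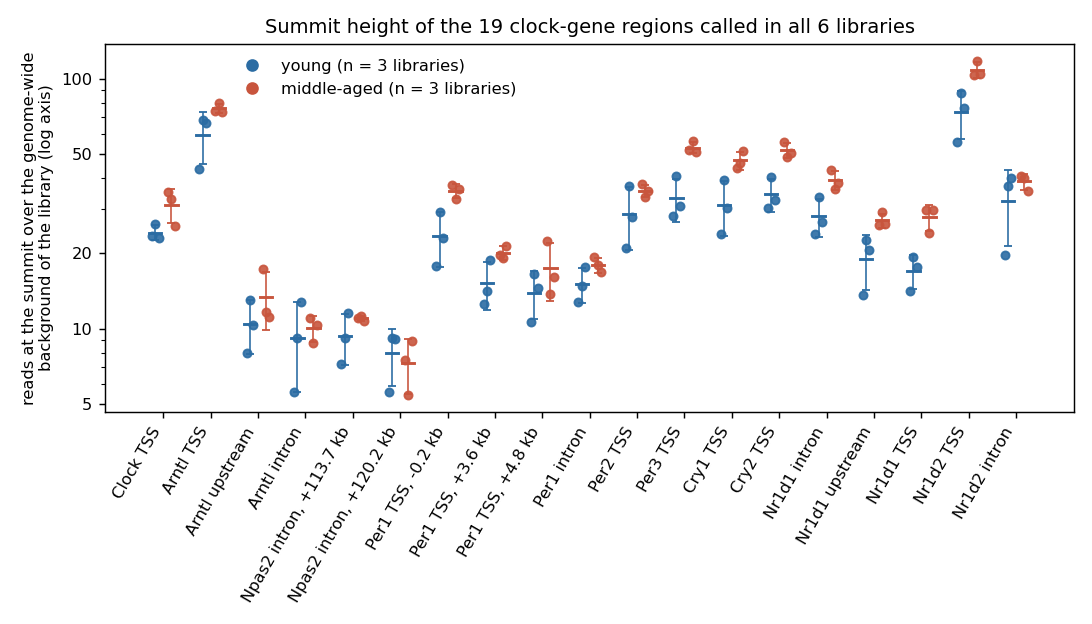
Reads at the summit divided by the genome-wide background of the library (vertical axis, log scale) for the 19 clock gene regions called in all 6 libraries, with 1 point per library, the group mean as a bar and the SD as an error bar. The TSS regions of Nr1d2 and Arntl are the tallest, at up to 118 and 79.9 times background, and the Npas2 intron regions lie between 5 and 12.

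Start sites included, the 10 loci held 28, 35 and 23 peaks in the young libraries against 38, 41 and 29 in the middle-aged ones. The means were 28.7 ± 6.03 and 36.0 ± 6.25, a ratio of 1.26 (exact permutation p = 0.2), beside a ratio of 1.32 for the length of the lists. As a share of the list, the loci took 0.0803% and 0.0766% of the peaks (exact permutation p = 0.9), and with equally long lists the ratio was 0.972 (exact permutation p = 0.9). No clock gene had a number of peaks that differed without overlap between the groups, which 5.76% of the 16177 genes with a peak had in the higher and 0.117% in the lower direction.

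Npas2 and Arntl had the most regions, 12 and 9, and Clock the fewest with 2. Of the 49 regions, 15 lay in a TSS window, 30 in an intron and 4 in the upstream flank, and 19 were called in all 6 libraries (11, 6 and 2 of these), against 35.1% of all 63840 regions. Another 12 were called in 1 library, with summits of 13 to 41 reads. Of these 9 were in a middle-aged library, as were 74.5% of all regions called in 1 library. No region was called in all 3 libraries of one age group and none of the other, which 2.21% of all regions were in the middle-aged and 0.036% in the young direction. More middle-aged than young libraries had a peak in 23 of the 49 regions (46.9%) and fewer in 6 (12.2%), beside 47.1% and 9.02% of all regions.

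**Figure D4:**
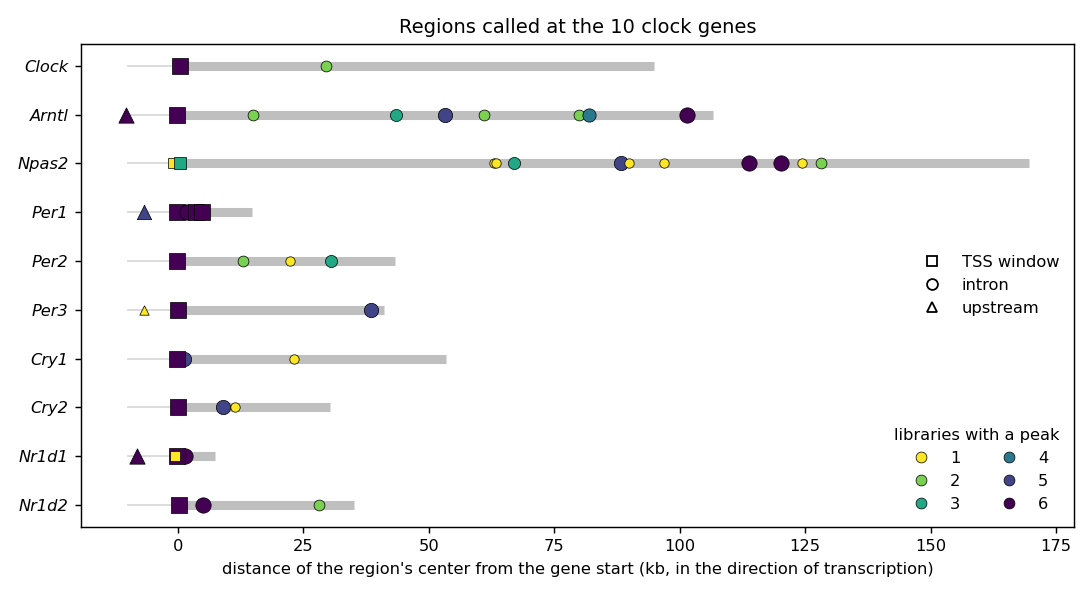
Regions called at the 10 clock genes by the distance of their center from the gene start (horizontal axis, kb, in the direction of transcription), with the gene body as a gray bar, the upstream 10 kb as a line, the place of a region as the symbol and the number of libraries with a peak as the color. Npas2 has 12 regions and 2 called in all 6 libraries, both in introns, while Nr1d1 has 3 shared regions within 10 kb.

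The regions outside TSS windows with the highest mean ranks were at the Nr1d genes. The Nr1d1 intron region (chr11:98773665-98774298), which holds the pair of E-boxes printed above, ranked 87.6, 88.8 and 77.9 in the young libraries against 91.3, 87.4 and 89.7 in the middle-aged ones. It stood above the Nr1d1 TSS region in 6 of 6 libraries, and the age groups overlapped. The Nr1d1 upstream region (chr11:98783270-98783727), centered -8166 bp from the gene start, ranked 70.7, 82.8 and 71.3 against 83.3, 84.7 and 84.3. It too stood above the TSS region in 6 of 6. Its middle-aged list ranks lay above the young ones, with young 2 close to the lowest of them. Among shared regions it stood at 53.7, 66.5 and 65.1 against 65.6, 68.3 and 66.2, where the groups overlapped. A TSS window widened to 2000 bp takes in the intron region as the best Nr1d1 peak, and Nr1d1 then no longer differed without overlap.

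The Nr1d2 intron region (chr14:18233874-18234357) ranked 74.9, 85.8 and 87.3 in the young libraries against 85.2, 82.7 and 81.9 in the middle-aged ones. It overlapped between the groups and was below the Nr1d2 TSS region in 6 of 6 libraries. At Per1, the upstream region at chr11:69088310-69088820 covered the start of Vamp2, a gene of vesicle fusion, and was called in 2 young and 3 middle-aged libraries. The Per3 locus lies over Camta1 in the annotation, and its TSS region (chr4:151044145-151045091) and intron region (chr4:151005994-151006313) overlap both gene bodies. Its upstream region (chr4:151051291-151051490) lies outside the Per3 body and overlaps Camta1 and Vamp3.

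At Npas2 the intron carried more open chromatin than the start site. The region at chr1:39307152-39307792 ranked 41.3, 54.8 and 47.0 in the young libraries against 59.2, 60.3 and 58.0 in the middle-aged ones, all far over its TSS peak. The middle-aged values lay above the young ones in list rank, but among shared regions the same region stood at 17.8, 20.8 and 37.1 against 23.3, 24.7 and 20.3, where the groups overlapped. Cry2 had an intron region (chr2:92424896-92425197) at ranks of 9.39 and 1.79 in young 1 and 2, with no call in young 3, and at 47.8, 41.5 and 49.5 in the middle-aged libraries. Its summits held 19 and 15 reads in those young libraries and 26, 22 and 27 in the middle-aged ones, and it was singled out after its values were seen.

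The fold enrichment of shared regions was then compared in 1 fit over all 22403 regions with limma, after centering each library on its median; the uncentered median was higher by 0.23 on the log2 scale in middle-aged libraries. No clock gene region passed an adjusted p of 0.05 (limma, Benjamini-Hochberg), nor did any of the 22403, a background of 0%. At an unadjusted p under 0.05, limma called 683 regions higher (3.05%) and 1089 lower (4.86%) in middle-aged libraries. Of the 19 clock gene regions, 2 were among the lower and 0 among the higher.

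These were the intron regions of Per1 and Nr1d2. The Per1 intron region with the printed CRE had folds of 4.22, 3.66 and 4.59 in the young libraries against 3.89, 3.94 and 3.42 in the middle-aged ones, a centered log2 difference of -0.38 (limma SE 0.156, unadjusted p = 0.033, adjusted p = 0.598). The Nr1d2 intron region had folds of 5.22, 6.23 and 7.33 against 6.15, 5.63 and 5.49, a centered difference of -0.34 (limma SE 0.147, unadjusted p = 0.040, adjusted p = 0.605). In both the uncentered folds of the groups overlapped. Of the 19 regions, 6 had positive and 13 negative centered differences, from -0.38 to 0.13, with a median of -0.08 beside -0.02 over all shared regions.

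**Figure D5:**
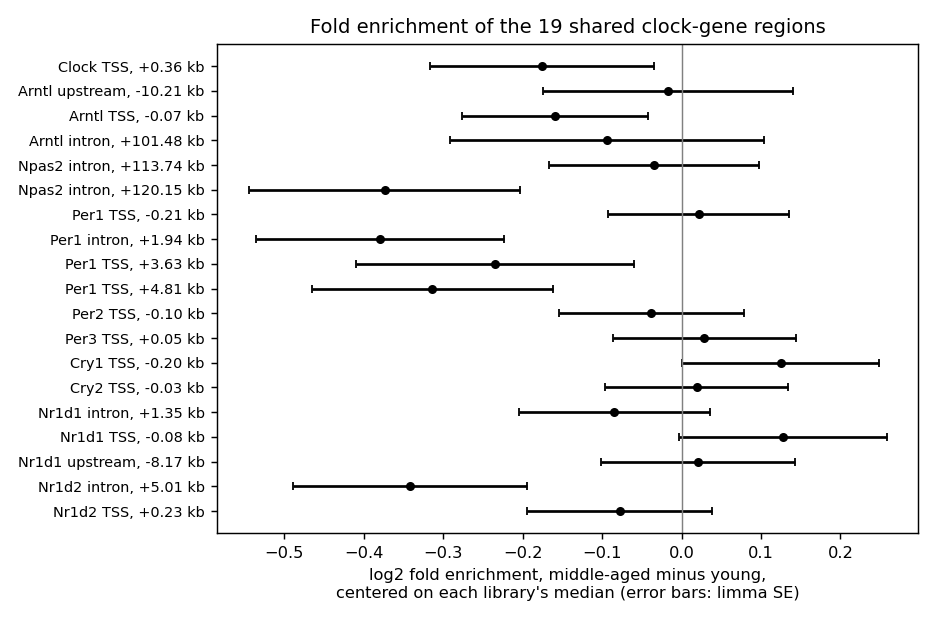
Difference in log2 fold enrichment, middle-aged minus young, after centering each library on its median (horizontal axis), for the 19 shared clock gene regions, labelled by place and distance from the gene start; points are limma estimates from 3 against 3 libraries and bars their SE. The values run from -0.38 at the Per1 intron to 0.13 at the Nr1d1 TSS, and none passed the adjusted threshold.

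A list of 19 further clock genes was followed in the same way, covering receptors that activate Arntl, output factors and enzymes that mark clock proteins for turnover. A TSS peak was called for 18, 18 and 15 of them in young 1, 2 and 3 and for 18 in each middle-aged library. Young 3 lacked a TSS peak that the other libraries had at Csnk1d, Csnk1e and Timeless. Of the 15 genes with a TSS peak in every library, 4 ranked higher without overlap in middle-aged libraries (Tef, Hlf, Usp2 and Id2) and 0 lower, near the background of 30.6%, with a median difference of 4.22 points. In equally long lists 0 of them did, and without young 2 there were 9, beside a background that rose to 58.7%.

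Tef and Hlf encode activators that read D-boxes. Hlf ranked 74.5, 69.5 and 43.9 in the young libraries against 84.8, 75.3 and 83.8 in the middle-aged ones, and Tef 91.6, 89.9 and 89.3 against 92.9, 95.5 and 95.0. Both were without overlap, Hlf by 18.7 and Tef by 4.23 points (exact permutation p = 0.1 each). Usp2, a deubiquitinase, ranked 78.6, 81.4 and 69.0 against 86.7, 82.5 and 85.0, and Id2, an inhibitor of helix-loop-helix factors, 92.3, 92.9 and 88.6 against 95.4, 93.9 and 97.1. In both the groups did not overlap, but the lowest middle-aged library was close to the highest young one.

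Dbp, the third D-box activator and a direct target of CLOCK and BMAL1, ranked 91.3, 94.9 and 82.0 in the young libraries against 94.4, 92.9 and 92.9 in the middle-aged ones, and its repressor counterpart Nfil3 84.9, 88.4 and 87.0 against 91.4, 86.5 and 85.6. Bhlhe40, an E-box repressor, ranked 90.3, 91.4 and 93.0 against 89.6, 92.7 and 88.4. In these 3 genes the groups overlapped. Rora, which activates Arntl through the RORE, overlapped in TSS rank (90.8, 87.5 and 80.8 against 81.9, 83.3 and 85.3) but had 8, 11 and 8 peaks over its locus in the young libraries and 15, 13 and 12 in middle-aged ones. Rora and Dbp (2 peaks in each young and 3 in each middle-aged library) were the 2 of 19 genes whose peak numbers did not overlap, beside the background of 5.76%. That background was not matched for the number of peaks at a locus. Rora spans 734 kb, and whole lists were longer in middle-aged libraries by a ratio of 1.32.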

How the data were processed

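The 6 ATAC-seq libraries were used as deposited peak lists, 1 per library. The authors aligned their reads to mm10 with Bowtie2 after bcl2fastq, dropped duplicates with Sambamba and called peaks with MACS without a control library. A shift for the transposase is not given in the sources used here. Their own comparison needed reads and was not repeated. The deposited values are a fold enrichment (a linear ratio of summit pileup to local background, 1 added to each), the −log10 p-value and the −log10 q-value of each peak. The deposited score, a whole number cut from a multiple of the −log10 q, was not used.

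Sample titles gave the group and number of each library. Start sites came from GENCODE for the same build, 54361 in all. Of several TSS peaks of a gene, the one with the highest −log10 q was used. Fold and −log10 p were solved together for summit reads and background, which gave whole reads for 100% of peaks (tolerance 0.01). Regions were peaks merged at 1 bp of overlap; coordinates count from 1. Single values were compared by exact permutation over 20 assignments, shared regions by limma 3.58.1 on log2 fold. Motifs were searched in RefSeq promoters and in the GRCm38.p6 genome, whose bases were the same in all 13 windows. Steps over many regions were tested on simulated data.

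The members and gene lists were chosen with earlier results of these data known. The list of other clock genes holds 1 gene that is counted but not reported here by name. All 10 genes were named; of the other clock genes, Rora, Dbp, Bhlhe40 and Nfil3 and those whose TSS peaks were in 2 or more libraries more in one group or whose ranks did not overlap; of regions, those specific to an age group, those with an adjusted p under 0.05 and the 3 with the highest mean rank outside TSS windows. The other intron and upstream regions, and Csnk1d, Csnk1e and Timeless, were named after their values were seen. The alternatives tried were a minimum −log10 q of 5, equally long lists, TSS windows of 500 and 2000 bp, flanks of 5000 and 20000 bp, 50% reciprocal overlap, summit height in place of fold, no centering, limma library weights, the replicate number as a block, each library left out, and, added later, rank among shared regions.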

Additional observations from a re-analysis of the deposited data

How the results depend on the processing

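Cutting the lists to equal length moved the most values: 2 in place of 6 clock genes and 0 in place of 4 other clock genes ranked higher without overlap in middle-aged libraries, the ratio of locus peaks went from 1.26 to 0.972, and the rank differences of Clock and Per2 turned to -3.10 and -1.66. Rank among shared regions left 1 clock gene without overlap and turned Clock and Per2 to -3.85 and -2.06. A minimum −log10 q of 5 ended the separation of Per1 and Cry1 (exact permutation p = 0.2 and 0.3), leaving 4 of 6 genes, and that of Hlf. This minimum and equally long lists each gave 1 region specific to middle-aged libraries, the Cry2 intron region, where the deposited lists gave 0. The share of all regions specific to an age group was not computed for these settings. Without centering, the log2 differences of the Nr1d1 intron and Nr1d2 TSS regions turned to 0.15 and 0.16, and by summit height to 0.13 and 0.23. The causes were not tested beyond what each setting changes by its construction.

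Leaving out 1 library at a time gave 0 to 1 clock genes ranked lower (Arntl, without young 1). The criterion is then looser for every gene, and the share of all genes ranked lower was not computed for these settings. This count is thus not a result about Arntl. The same removals gave 4 to 9 other clock genes ranked higher (9 without young 2, where the background was 58.7% in place of 30.6%). Regions specific to middle-aged libraries numbered 0 to 4: 1 without young 2 (at Arntl), 2 without middle-aged 1 (at Arntl and Nr1d2) and 4 without middle-aged 3 (at Npas2, Per2, Clock and Arntl). With 1 library fewer the criterion is looser for every region, and the share over all regions was not computed. These region counts are thus not a result about the clock genes. The same removals moved the rank difference of Clock between -0.897 and 5.18 points and that of Arntl between -0.362 and 0.184. They moved the log2 fold difference of Clock between -0.0500 and 0.139 and that of the Nr1d1 upstream region between -0.0609 and 0.0639. Each result was recomputed under the settings that apply to it. A single gene or region counted as stayed where its sign held, as no p crossed 0.05, which the exact test cannot reach. Size did not count: the Nr1d1 rank difference of 18.8 points still counted as stayed at 4.67 with a TSS window of 2000 bp. Main counts could also change within a set ratio, as from 6 to 4 genes at a minimum −log10 q of 5. On these rules 132 values of main results stayed, 10 moved and 1 reversed. Of those of single genes or regions 268 stayed and 14 reversed.

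After centering each library on its median, same-numbered libraries had deviations from their group means correlated at 0.0116, 0.0115 and -0.0185 over 22403 regions. Centering removes any shift of a whole library, so these values do not show whether same-numbered libraries were handled together. With the number as a replicate block, 7 clock genes and 46.6% of all genes ranked higher in every pair, and limma called 0 regions. Depth leaves wide counting intervals at the Npas2 TSS peaks, which rested on 12 to 15 reads.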
